A study of Mus musculus with 6 samples.

Results

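The transcripts of the olfactory epithelium, the tissue of the nasal cavity that holds the odour-sensing neurons, were profiled in embryonic mice late in gestation, at ED18.5, to ask which transcripts differ between Emx2 knockout and wildtype embryos. Emx2 encodes a homeodomain transcription factor. The genes described here are 10 cell adhesion molecules of the immunoglobulin superfamily, namely the contactins Cntn1 to Cntn6, the L1 family members L1cam and Chl1, and Ncam1 and Dscam. The list was selected on the log2 differences between the genotypes that these arrays had shown, so the members' differences are given as a description and without p-values. The genes were found by symbol in the platform annotation of the deposited table, and 9 of the 10 had a transcript cluster that names 1 gene, of 16661 clusters tested. Cntn5 was not analysed here.

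The groups were 3 arrays labelled Emx2 Knockout and 3 arrays labelled Emx2 Homozygous Wildtype. Each array held equal amounts of total RNA pooled from 3 animals, so 9 embryos stood behind each genotype. The labels and design text do not say how the Emx2 allele was made, in which cells it is lost, or from which strain and litters the embryos came. Each transcript cluster has 1 log2 signal per array, made by RMA from the probes of an Affymetrix exon array, so that a step of 1 is a doubling of signal.

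Contactins are proteins of immunoglobulin and fibronectin type III domains that a lipid anchor holds on the outer face of the neuronal membrane. L1 family members, Ncam1 and Dscam cross the membrane and bind the same protein or other adhesion molecules on the neighbouring cell. Olfactory sensory neurons that express the same odorant receptor send their axons to the same glomeruli of the olfactory bulb, and adhesion molecules on those axons take part in sorting them. Cntn4, also called BIG-2, is known in the mouse as a molecule that only some of these neurons carry, in amounts that go with the receptor they express.

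Emx2 itself was at 8.38, 8.33 and 8.39 in the arrays labelled knockout, against 8.37, 8.59 and 8.36 in the wildtype arrays (difference -0.07, SE 0.09; limma adjusted p = 0.894). No source used here says whether the probes of this cluster lie in the deleted part, so it checks nothing about the labels, on which every direction rests. Omp, which defines mature olfactory neurons, ran from 11.22 to 11.62 in the arrays labelled knockout and from 11.82 to 12.51 in the wildtype arrays. The Y-linked gene Eif2s3y was at 7.78 and 8.89 in replicates 2 and 3 labelled knockout and 8.14 in wildtype replicate 2, and between 3.30 and 3.69 in the other arrays, which shows that the pools were not alike in the sex of their embryos.

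Cntn4 was the member that fell. It was at 9.59, 9.84 and 9.63 in the arrays labelled knockout, against 10.78, 10.70 and 10.76 in the wildtype arrays. The groups did not overlap, and all 3 wildtype arrays lay close together above the arrays labelled knockout. The means were 9.68 ± 0.13 and 10.75 ± 0.04 (SD, n = 3 each), a log2 difference of -1.06 with an SE of 0.09 and a 95% interval of -1.29 to -0.84, which is a signal 2.09-fold lower in the arrays labelled knockout. Cntn4 was among the clusters called in limma's fit over all clusters, which lends it no support, since it was chosen with this difference known.

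The other 8 measured members did not pass it. The count was therefore 1 of 9 lower and 0 of 9 higher (limma; also 1 and 0 at an unadjusted p under 0.05), where 1.90% of all clusters passed as lower and 0.144% as higher. The groups did not overlap for 3 of the 9, all with lower values in the arrays labelled knockout, where 12.0% of all clusters were apart in that direction and 3.51% in the other. Over the 9 members the median log2 difference was -0.06, against -0.04 over all clusters. The members were chosen with this contrast in view, so nothing is read from these counts. RNA was taken from whole tissue, so fewer cells of a type and less RNA per cell cannot be told apart.

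**Figure D1:**
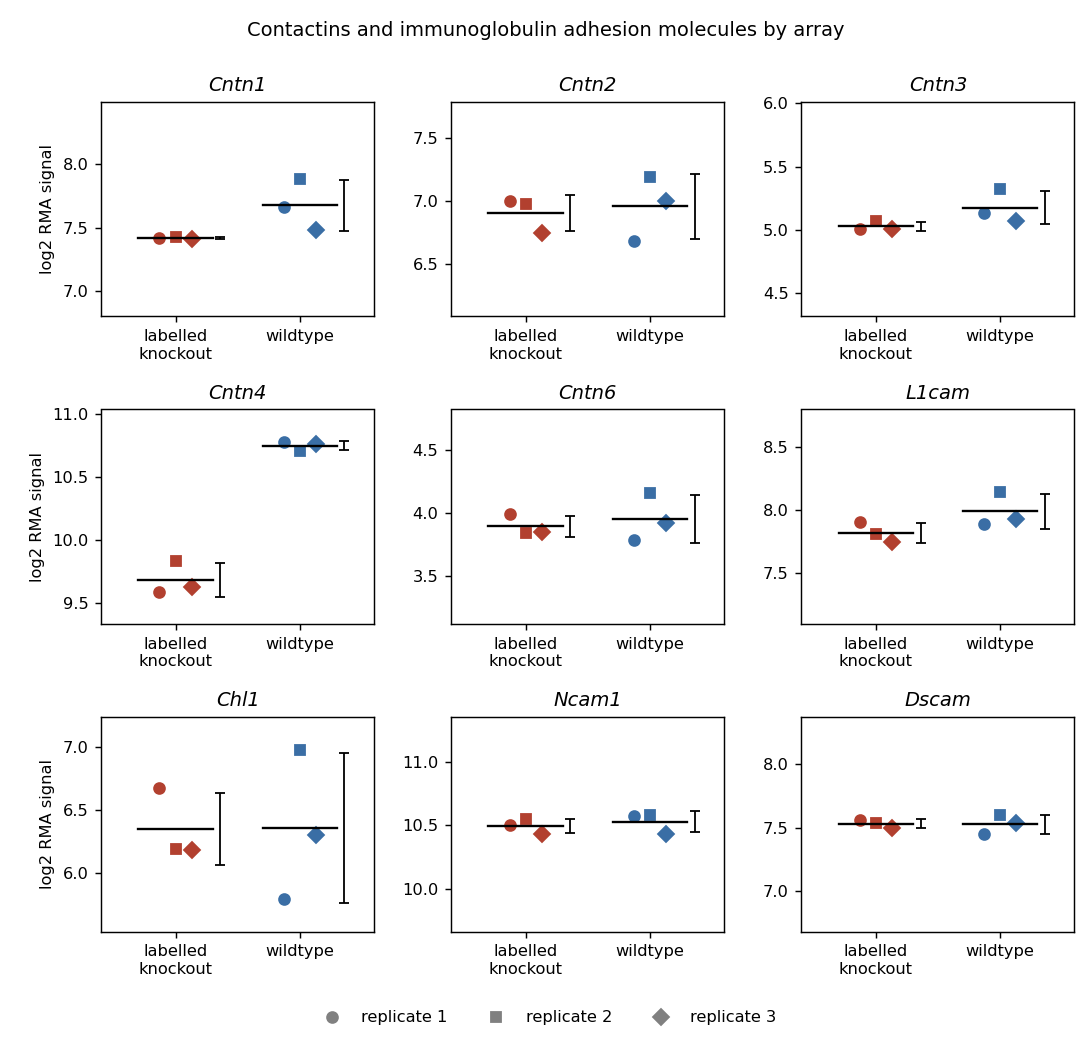
Log2 RMA signal of each of the 9 measured members by array, with the arrays labelled knockout in red on the left and the wildtype arrays in blue on the right of each panel. Symbols mark replicates, horizontal lines are group means, bars beside them are 1 SD (n = 3), and every panel spans the same number of log2 units. Cntn4 separates the genotypes, at 9.59 to 9.84 against 10.70 to 10.78, while Chl1 spreads most within them.

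Cntn1, which pairs with Cntnap1 where myelin meets the axon, had the next largest difference. It was at 7.41, 7.42 and 7.41 in the arrays labelled knockout, against 7.66, 7.88 and 7.48 in the wildtype arrays. The groups did not overlap, but the wildtype arrays were spread over a much wider range. The log2 difference was -0.26 (SE 0.11, 95% interval -0.53 to 0.01), and it was -0.16 without wildtype replicate 2. Cntn3, also called PANG or BIG-1, was at 5.004, 5.070 and 5.003 in the arrays labelled knockout, against 5.133, 5.322 and 5.070 in the wildtype arrays. These groups did not overlap but all but touched, with 5.0697 in replicate 2 labelled knockout and 5.0699 in wildtype replicate 3, and the difference was -0.15 (SE 0.09, 95% interval -0.37 to 0.07). The mean signal of Cntn3 lay below the 25th percentile of all clusters.

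Cntn2, or TAG-1, which marks axons during their outgrowth, was at 7.001, 6.972 and 6.741 in the arrays labelled knockout, against 6.679, 7.187 and 6.998 in the wildtype arrays. The groups overlapped widely, and the difference was -0.05 (SE 0.15, 95% interval -0.40 to 0.30). Cntn6, or NB-3, a contactin known as a ligand of Notch, was at 3.99, 3.84 and 3.85 in the arrays labelled knockout, against 3.78, 4.16 and 3.92 in the wildtype arrays. The wildtype arrays enclosed all 3 arrays labelled knockout, with a difference of -0.06 (SE 0.12, 95% interval -0.33 to 0.22). No source used here gives the array background of this cluster, and its weight at such a signal is unknown.

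L1cam, a promoter of axon growth and bundling that is encoded on the X chromosome, was at 7.90, 7.81 and 7.75 in the arrays labelled knockout, against 7.89, 8.14 and 7.93 in the wildtype arrays. The groups overlapped through a single pair of arrays, and the difference was -0.17 (SE 0.10, 95% interval -0.40 to 0.07). Chl1, the close homologue of L1, was at 6.68, 6.19 and 6.18 in the arrays labelled knockout, against 5.80, 6.97 and 6.30 in the wildtype arrays. Wildtype arrays held both its lowest and its highest value. The difference was -0.01 with an SE of 0.30, and the 95% interval of -0.71 to 0.70 leaves room for a change in either direction.

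Ncam1, the neural cell adhesion molecule whose polysialic acid chains loosen adhesion, was at 10.50, 10.55 and 10.44 in the arrays labelled knockout, against 10.57, 10.58 and 10.43 in the wildtype arrays. Dscam, a receptor in self-avoidance of neurites, was at 7.56, 7.53 and 7.49 in the arrays labelled knockout, against 7.45, 7.60 and 7.53 in the wildtype arrays. In both genes the wildtype arrays enclosed all 3 arrays labelled knockout. The differences were -0.03 (SE 0.08, 95% interval -0.23 to 0.17) for Ncam1 and 0.00 (SE 0.08, 95% interval -0.19 to 0.20) for Dscam.

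Cntn4 was then set against markers of the neurons that carry it, array by array. Markers of mature olfactory neurons were lower in the arrays labelled knockout in 11 of 11 measured genes, with a mean over the list of 9.07 to 9.36 in these arrays and 9.61 to 10.01 in the wildtype arrays, and 2 of the 11 passed the fit (limma; 10 had an unadjusted p under 0.05). Markers of immature olfactory neurons were lower in 7 of 7, with a mean of 9.99 to 10.03 against 10.22 to 10.41, and 1 of the 7 passed (limma; 5 had an unadjusted p under 0.05). Of all 16661 clusters, 10270 had a negative difference, 1.90% passed as lower and 8.33% were lower at an unadjusted p under 0.05. The differences of both lists had the sign of that of Cntn4. Among the mature neuron markers they ran from -1.21 for Ano2 to -0.21 for Reep1. Ano2 and Umodl1 (-1.07) fell at least as far as Cntn4 (-1.06), and the other mature neuron markers fell less. What is left after subtracting a list mean therefore depends on the markers listed. Cntn4 minus the mature neuron mean was 0.52, 0.47 and 0.50 in the arrays labelled knockout, against 0.85, 1.10 and 0.75 in the wildtype arrays, a difference of -0.40 (SE 0.10, from the spread of the 3 and 3 arrays). Cntn4 minus the immature neuron mean was -0.43, -0.19 and -0.37 in the arrays labelled knockout, against 0.55, 0.29 and 0.39 in the wildtype arrays, a difference of -0.74 (SE 0.10). The groups stayed apart on both scales, which lends no support, since Cntn4 was chosen with its difference on these arrays known. The absolute values of these subtractions carry the brightness of different probes and have no meaning, and what is read is their difference between genotypes.

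Cntn4 minus the mean of the 4 other measured contactins was 3.74, 4.01 and 3.87 in the arrays labelled knockout, against 4.96, 4.57 and 4.90 in the wildtype arrays, a difference of -0.93 (SE 0.15), which follows from the small differences of those contactins given above. Within the arrays of low Y-linked signal, Cntn4 in the 1 array labelled knockout differed by -1.18 from the mean of 2 wildtype arrays. Within the arrays of high Y-linked signal, the mean of 2 arrays labelled knockout differed by -0.97 from the 1 wildtype array. Each of these sets has a genotype with a single array, so neither value has an error.

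**Figure D2:**
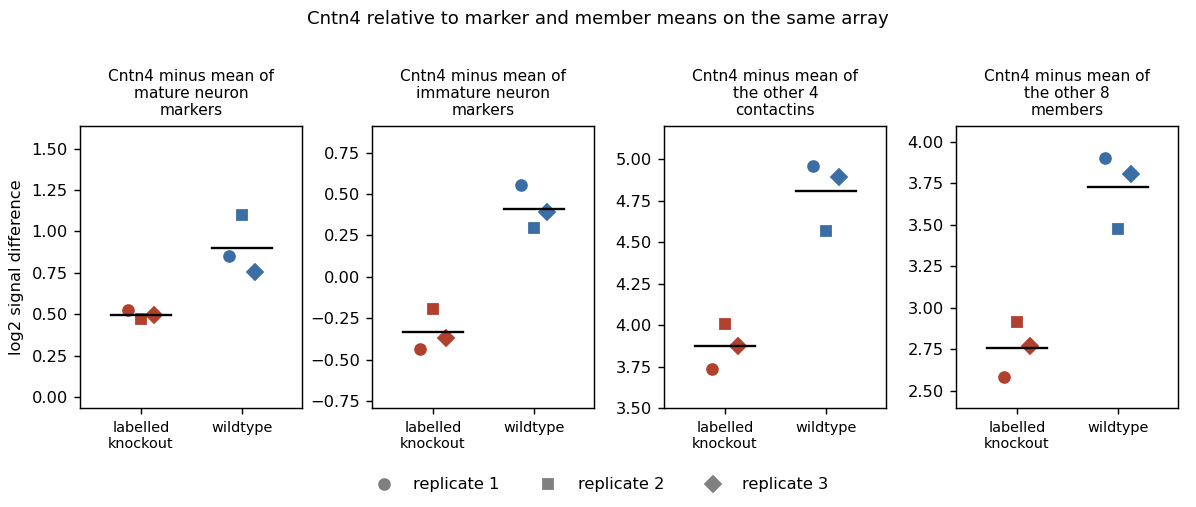
Cntn4 log2 signal minus, from left to right, the mean of 11 mature neuron markers, 7 immature neuron markers, the 4 other measured contactins and the 8 other measured members on the same array. Points are arrays, with those labelled knockout in red on the left and wildtype in blue on the right, and lines are group means. The groups are apart in every panel, with the smallest gap, 0.23, against the mature neuron markers. Cntn4 was chosen with its difference on these arrays known, so the separation is a description and no support.

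Markers of other cell types were read on the same arrays. Mesenchyme, cartilage and bone markers were higher in the arrays labelled knockout in 11 of 11 genes, with list means of 10.11 to 10.23 in these arrays and 9.69 to 9.89 in the wildtype arrays, and 0 passed the fit (limma; 5 had an unadjusted p under 0.05). Sustentacular cell markers were positive in 7 of 8 genes, with list means of 10.03 to 10.31 in the arrays labelled knockout and 9.91 to 10.03 in the wildtype arrays. Of these 8, 0 passed the fit and 2 were higher at an unadjusted p under 0.05 (limma). Olfactory ensheathing glia, which wrap the axons and are known to carry L1cam and Ncam1, had positive differences in 5 of 8 marker genes and list means of 7.68 to 7.80 in the arrays labelled knockout and 7.72 to 7.88 in the wildtype arrays. Markers of endothelium and blood were positive in 4 of 5 genes, with list means that ran from 8.61 to 8.71 in the arrays labelled knockout and from 8.56 to 8.59 in the wildtype arrays. None of the glia, endothelium and blood markers passed the fit or had an unadjusted p under 0.05 (limma). Of all 16661 clusters, 6389 had a positive difference, 0.144% passed as higher and 1.81% were higher at an unadjusted p under 0.05. The part of these lists in the value of Cntn4 was not tested.

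The genes whose signal over the 6 arrays was most like that of Cntn4, among 7660 genes of above-median signal, were Stk32a (Pearson r = 0.99), Sh2b2 (0.99), Spock1 (0.99) and Tmprss6 (0.99). The 6 points share the genotype split, which sets most of such a correlation. Tmprss6 was at 8.24, 8.35 and 8.10 in the arrays labelled knockout, against 9.25, 9.23 and 9.40 in the wildtype arrays. Its difference of -1.06 was the same to 2 decimals as that of Cntn4. Stk32a differed by -0.90, Spock1, a proteoglycan, by -0.82 and Sh2b2, an adaptor protein, by -0.38.

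Cntn4 has other members as neighbours. In the GRCm38.p6 gene table, Cntn3, Chl1, Cntn6 and Cntn4 are 4 consecutive protein-coding genes of chromosome 6, and Cntn4 stands at one end of the row. The difference of Cntn4 was -1.06, while it was -0.06 for its neighbour Cntn6, -0.01 for Chl1 and -0.15 for Cntn3. Beyond Cntn4 the next genes are Il5ra, Trnt1 and Crbn, with differences of 0.01, -0.11 and -0.15. On the far side of Cntn3 they are Pdzrn3, Ppp4r2 and Gxylt2, with differences of 0.13, -0.06 and 0.21. None of these 6 flanking genes passed the fit (limma adjusted p from 0.702 to 0.990), and they were looked up after the value of Cntn4 was known. The genes on each side of Cntn4 had low signals, with wildtype means of 3.95 for Cntn6 and 3.00 for Il5ra, and Cntn3 was at 5.18. A fall in these genes might not show at such signals, so the values do not say that the change is confined to Cntn4.

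Windows around the annotated starts of Cntn4 and of its neighbour Cntn6 are printed to show the sequence at the member that fell and at the contactin next to it. They come from RefSeq, build GRCm38.p6, and run from 250 bases before to 50 bases after a start. A window was found for 9 of the 10 listed genes, 14 windows in all. Capitals mark matches on either strand to TAATTA and TAATTG, core letters bound by many homeodomain proteins. The first Cntn4 window lies at chr6:106118515-106118814 on the plus strand.
Cntn4 first window: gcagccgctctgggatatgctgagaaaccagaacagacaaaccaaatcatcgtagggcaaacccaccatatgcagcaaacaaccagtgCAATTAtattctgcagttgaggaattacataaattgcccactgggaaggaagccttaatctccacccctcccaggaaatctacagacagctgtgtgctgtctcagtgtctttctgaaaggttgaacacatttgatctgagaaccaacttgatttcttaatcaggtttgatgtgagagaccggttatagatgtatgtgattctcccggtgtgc
The second Cntn4 window lies at chr6:106118692-106118991 on the plus strand, with a start 177 bases further on, so that the windows overlap.
Cntn4 second window: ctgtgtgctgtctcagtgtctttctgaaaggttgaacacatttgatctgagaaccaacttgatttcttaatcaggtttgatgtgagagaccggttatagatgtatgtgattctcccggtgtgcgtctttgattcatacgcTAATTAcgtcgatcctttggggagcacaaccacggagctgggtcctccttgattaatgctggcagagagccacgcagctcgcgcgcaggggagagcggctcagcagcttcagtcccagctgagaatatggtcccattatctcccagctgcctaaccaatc
The Cntn6 window lies at chr6:104492794-104493093 on the plus strand.
Cntn6 window: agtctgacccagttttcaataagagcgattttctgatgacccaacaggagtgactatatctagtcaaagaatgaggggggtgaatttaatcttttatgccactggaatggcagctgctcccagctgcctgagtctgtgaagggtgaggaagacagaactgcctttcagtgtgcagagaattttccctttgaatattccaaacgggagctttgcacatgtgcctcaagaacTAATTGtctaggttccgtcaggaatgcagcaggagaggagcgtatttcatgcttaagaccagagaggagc

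TAATTA stood in 1 of the 14 member windows, 110 bases before the second Cntn4 start, and in 5.29% of all 32851 windows of the table. TAATTG, or CAATTA on the other strand, stood 162 bases before the first Cntn4 start and 20 bases before the Cntn6 start, and in 8.0% of all windows. The matches did not overlap one another. They describe the letters of these windows and are no evidence of binding.

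Pools differed among themselves in several members. In 8 of the 9, all but Cntn4, wildtype replicate 2 had the highest value of all 6 arrays, which was so in 19.2% of all clusters. In Chl1 the residual SD within genotypes was 0.46, at percentile 96.4 of all clusters, and in Dscam and Ncam1 it was 0.06 and 0.07, at percentiles 7.91 and 12.9. Chl1 is thus the member whose signal varied most between pools of 1 genotype, and a genotype difference in it is the least well bounded.

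Markers of brain and olfactory bulb neurons varied between the wildtype pools as well. Differences between genotypes were negative in 10 of the 11, and Gad2 alone passed the fit, as higher. At an unadjusted p under 0.05 (limma), 2 of the markers were lower and 1 higher. Of all 16661 clusters, 10270 had a negative difference and 0.144% passed as higher. At an unadjusted p under 0.05, 8.33% of all clusters were lower and 1.81% higher. The list mean of the 11 markers was 6.49, 6.51 and 6.38 in the arrays labelled knockout, against 6.41, 7.21 and 6.75 in the wildtype arrays. Wildtype replicate 2 was the highest wildtype array in 10 of these 11 markers and in 30.1% of all clusters. Neurod6, a transcription factor of cortical neurons, was at 4.601, 4.875 and 4.001 in the arrays labelled knockout, against 4.542, 7.188 and 6.886 in the wildtype arrays. The order of the wildtype arrays that Chl1 shows, with replicate 1 lowest and replicate 2 highest, was found in 7 of the 11 brain and bulb markers, in 5 of the 9 members and in 14.5% of all clusters. In the arrays labelled knockout, Chl1 was highest in replicate 1, where the list mean was not. The part of brain or bulb RNA in these values was not tested.

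**Figure D3:**
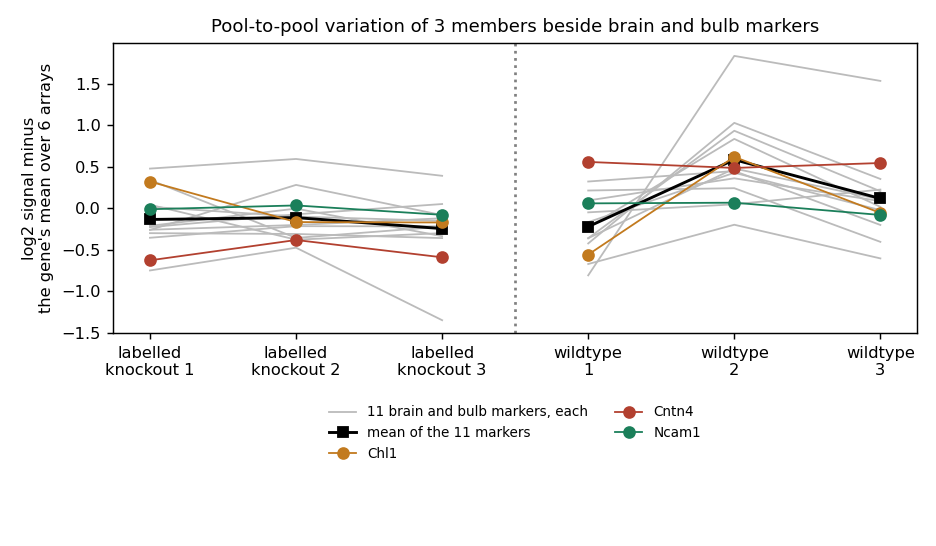
Log2 signal of Chl1, Cntn4 and Ncam1, of 11 brain and olfactory bulb neuron markers and of their mean, each minus its own mean over the 6 arrays. Arrays labelled knockout are left and wildtype arrays right of the dotted line, and lines join values of 1 gene within a genotype without implying an order of replicates. Chl1 and the marker mean are lowest in wildtype replicate 1 and highest in wildtype replicate 2, while Cntn4 is split by genotype and Ncam1 stays near its mean.

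Several small differences depended on the pools. Without wildtype replicate 1 the difference of Chl1 was -0.29, and without wildtype replicate 2 it was 0.30. Within the arrays of low Y-linked signal Chl1 differed by 0.63, and within those of high Y-linked signal by -0.79. Cntn2 (0.16 and -0.33), Cntn6 (0.14 and -0.31) and Dscam (0.07 and -0.09) also changed sign between these sets. The only wildtype array of the high set is wildtype replicate 2, the array in which 8 of the 9 members were highest. The only array labelled knockout in the low set is replicate 1, the highest array with that label for Chl1, Cntn2, Cntn6 and Dscam. These sign changes therefore involve a single array in each set, and their cause was not tested. Without wildtype replicate 2 the difference was -0.08 for Cntn3, -0.09 for L1cam and -0.01 for Ncam1. It was then 0.07 for Cntn2, 0.04 for Cntn6 and 0.04 for Dscam. After a second quantile normalization the difference turned positive for Cntn6 (0.15), Chl1 (0.08), Ncam1 (0.02), Cntn3 (0.01) and Cntn2 (0.0024).

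Relatives and binding partners were listed by textbook role, and 51 of 64 were measured by a cluster of their own. None passed the fit in either direction (limma; 5 lower and 3 higher had an unadjusted p under 0.05), where 1.90% of all clusters passed as lower and 0.144% as higher. At an unadjusted p under 0.05, 8.33% of all clusters were lower and 1.81% higher. Their median log2 difference was -0.02, with 28 negative and 23 positive values, against -0.04 over all clusters.

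Contactin partners had 6 negative and 6 positive differences in 12 measured genes. Aplp1, an amyloid precursor relative, was at 9.34, 9.67 and 9.29 in the arrays labelled knockout, against 10.06, 9.90 and 10.14 in the wildtype arrays (difference -0.60, SE 0.13; limma adjusted p = 0.0881). Tnc, the extracellular matrix protein tenascin-C, was at 8.78, 9.10 and 8.75 in the arrays labelled knockout, against 8.20, 8.49 and 7.99 in the wildtype arrays (difference 0.65, SE 0.16; limma adjusted p = 0.126). Both genes separated the genotypes, and neither passed.

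L1 relatives and partners had 4 negative and 5 positive differences in 9 genes. Nrcam, an L1 family member of axons, was at 7.18, 6.87 and 6.91 in the arrays labelled knockout, against 7.16, 7.56 and 7.38 in the wildtype arrays (difference -0.38, SE 0.14; limma adjusted p = 0.386). Dcx, a microtubule protein of young neurons, had a difference of -0.29 (SE 0.10; limma adjusted p = 0.383). Dcx separated the genotypes and Nrcam did not.

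NCAM relatives and partners had 3 negative and 5 positive differences in 8 genes. Ncam2, also called OCAM and known as a marker of ventral-zone olfactory neurons, was at 8.35, 8.21 and 8.46 in the arrays labelled knockout, against 8.89, 8.84 and 8.35 in the wildtype arrays (difference -0.36, SE 0.16; limma adjusted p = 0.535). St8sia2, which adds polysialic acid to Ncam1, had a difference of 0.22 (SE 0.13; limma adjusted p = 0.691). The genotypes overlapped in both.

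DSCAM relatives and partners had 1 negative and 3 positive differences in 4 genes, with Sdk2 at 0.16 (SE 0.08; limma adjusted p = 0.594) and Ntn1, a netrin, at 0.19 (SE 0.13; limma adjusted p = 0.760). Among 18 other immunoglobulin adhesion molecules 14 differences were negative and 4 positive. Igsf8 was at 8.79, 8.83 and 8.80 in the arrays labelled knockout, against 9.15, 9.18 and 9.35 in the wildtype arrays (difference -0.42, SE 0.09; limma adjusted p = 0.0763). Negr1, a member of the IgLON family, had a difference of 0.32 (SE 0.13; limma adjusted p = 0.481). Igsf8 separated the genotypes and came closest to the threshold of all 51.

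**Figure D4:**
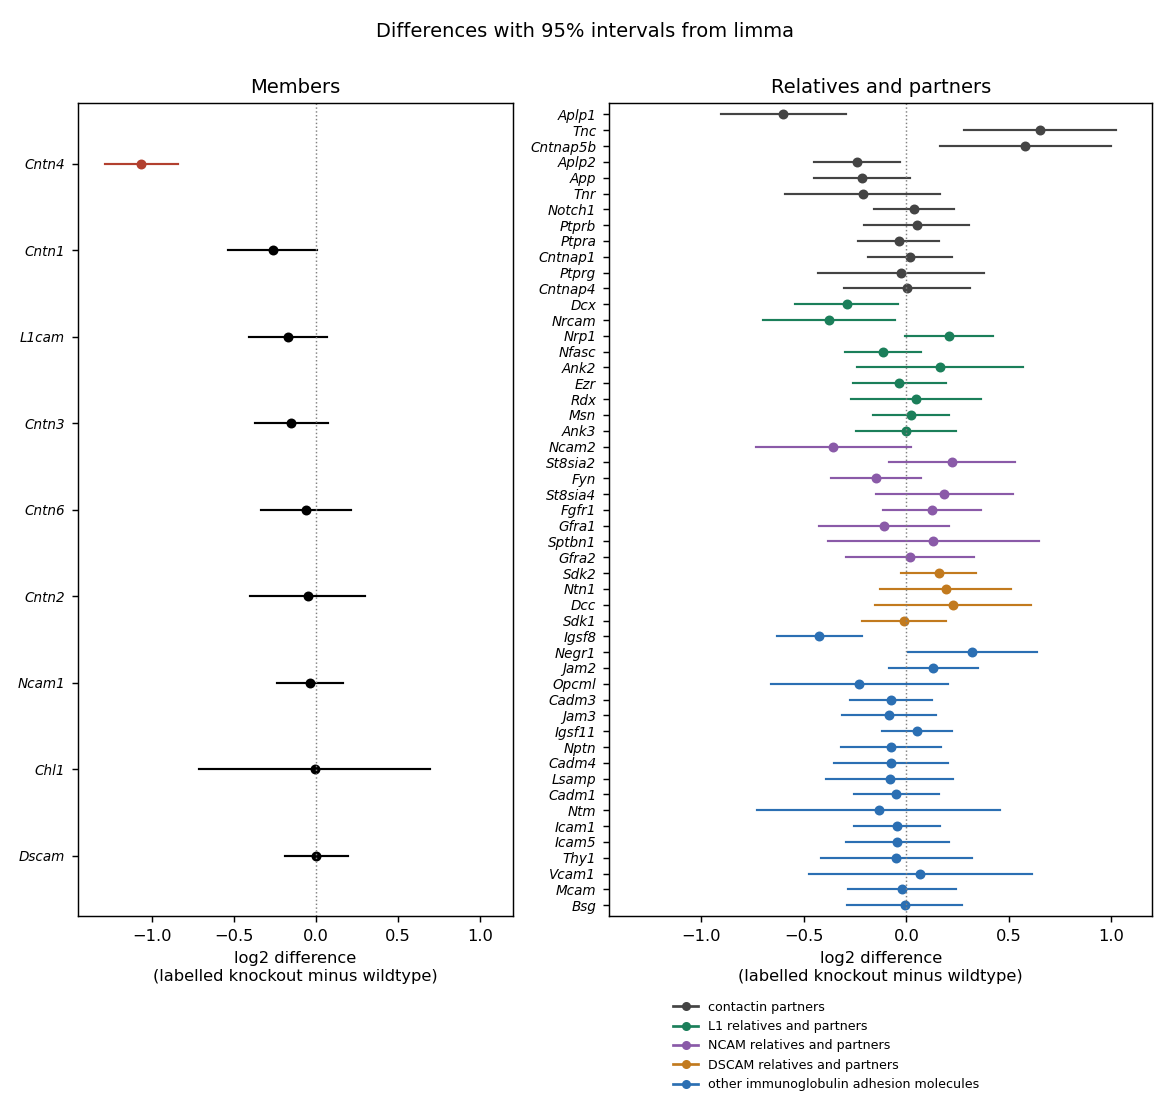
Log2 differences (arrays labelled knockout minus wildtype) of the 9 members, left, and of 51 relatives and partners, right, coloured by list, with 95% intervals from limma (n = 3 arrays each). Cntn4, in red, is the only one of these genes called in the fit over all clusters, with an interval of -1.29 to -0.84. In that fit 1.90% of all clusters passed as lower. Cntn4 was chosen with its difference on these arrays known, so the call and the interval are a description and no support.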

How the data were processed

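Per the submitters' processing notes, the authors ran RMA in Affymetrix Expression Console, which yields background-corrected, quantile-normalized and probe-summarised log2 signals, the deposited unit. No source used here names versions or a genome build. Summarising over all exons hides a change limited to some isoforms.

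Of 23238 probe sets, the 16661 in the annotated numbering range were tested, and 14939 of them named 1 gene. The brightest cluster stood for a gene that had more than 1; of the members and partners, Sptbn1 alone had 2. Limma 3.58.1 (lmFit and eBayes in R 4.3.3) was fitted on all 6 arrays for the difference of knockout minus wildtype. Two-sided p-values were adjusted by Benjamini and Hochberg's method across those 16661 clusters, and calls were made at 0.05. The steps were tested on simulated data. Array pairs correlated at 0.975 to 0.991 and shared at most 9 identical values, so each array was counted as 1 replicate; nothing says whether pools shared litters. The number of arrays limits the precision.

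All measured members were named. Of each partner list the called genes, or the 2 with the smallest p where none passed, were named, and the 4 genes most like a called member. Members and lists were chosen with earlier results of these data known. Alternatives were other scalings, a filter, all probe sets, other variance models, a replicate block, a Y-linked covariate, averaged clusters, marker means subtracted and each array left out; the values within pools of like Y-linked signal and the flanking genes were added after seeing the data. Plots used matplotlib 3.10.9.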

Additional observations from a re-analysis of the deposited data

How the results depend on the processing

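The log2 difference of Cntn4 was -1.14 to -0.997 over 16 refits, and -1.14 to -1.02 with 1 array left out; the gene was chosen on these same arrays, so this is a description of the settings and no support. It was -0.40 after the mean of the mature neuron markers was subtracted and -0.74 after that of the immature ones. The count of members called was 1 in every refit, also in the one limited to clusters above the 25th percentile, which left out Cntn3 and Cntn6. The count of partner genes called was 1 of 51 with an intensity trend and 0 in the other 15 refits. Igsf8 passed there, as lower (limma adjusted p = 0.0484, against 0.0484 to 0.262 over its 16 refits). With that trend 337 of all 16661 clusters passed as lower and 23 as higher, so nothing is read from this call. Its cause was not tested. With the replicate number as a block, Cntn4 was at -1.06, a value that the balanced design fixes in advance. The filter, all probe sets, the intensity trend, robust variance estimation and averaged clusters could not change its difference either. These refits therefore say nothing about how stable it is. Same-numbered arrays deviated together with r of 0.007, 0.049 and -0.167, so the numbers are not taken to pair the samples. Over all clusters, 316 lower and 24 higher calls became 109 to 362 lower and 13 to 32 higher calls over the alternatives. The lower count was 109 with the filter, 144 with all probe sets, 168 with the block and 186 with the Y-linked covariate. Leaving out replicates 1 and 3 of the wildtype gave 207 and 185 lower calls, and leaving out replicates 1, 2 and 3 labelled knockout gave 145, 182 and 150. Leaving out replicates 2 and 3 labelled knockout gave 13 and 14 higher calls.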
